A study of Mus musculus with 17 samples.

Results

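The platelet-derived growth factor (PDGF) genes were examined in sorted cells of mouse skin and kidney by droplet single-cell RNA sequencing. The 6 members were the ligands *Pdgfa*, *Pdgfb*, *Pdgfc* and *Pdgfd* and the receptors *Pdgfra* and *Pdgfrb*, chosen by name out of 30406 genes present in the gene lists of all 17 libraries. All libraries came from 8-week-old mice that carried *PDGFRb-Cre* and the Z/EG reporter, which turns on GFP after Cre recombination, and GFP+ cells were sorted after digestion of the tissue. The mice were either *SARATg*, which overexpress the Smad anchor SARA (gene *Zfyve9*) after Cre recombination, or wild type for the transgene (*SARAWT*). Skin was taken after subcutaneous PBS (3 *SARAWT* libraries and 1 *SARATg* library) or after bleomycin at 20 mg/kg, 3 times a week for 2 weeks (3 *SARAWT* and 1 *SARATg*), a treatment that causes skin fibrosis. This schedule is that of the sample labels, whereas the study's methods describe daily injections. Kidney was taken after vehicle (3 *SARAWT* and 2 *SARATg*) or after aristolochic acid (AA), a tubular toxin, at 5 mg/kg, 3 times a week for 3 weeks (3 *SARAWT* and 1 *SARATg*). *Pdgfrb* drives the Cre of every library, so that a cell that carries GFP may have used the *Pdgfrb* promoter only earlier in its lineage, and the study notes that this promoter is also active in leukocytes of the embryo. The labels do not say that libraries came from separate animals, and p-values therefore measure the spread between libraries.

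PDGF ligands act as dimers on a pair of receptor tyrosine kinases. PDGF-A and PDGF-B are secreted in active form, whereas PDGF-C and PDGF-D carry a CUB domain that proteases must remove. PDGFR-α binds PDGF-A, PDGF-B and PDGF-C, and PDGFR-β binds PDGF-B and PDGF-D. Endothelial PDGF-B recruits pericytes that carry PDGFR-β to vessel walls, and PDGFR-α marks connective tissue fibroblasts, whose growth and matrix synthesis PDGF stimulates.

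By GENCODE positions on GRCm38, *Pdgfa* (ENSMUSG00000025856) lies on the minus strand of chr5:138976014-138997370 and *Pdgfra* (ENSMUSG00000029231) on the plus strand of chr5:75152292-75198215. *Pdgfb* (ENSMUSG00000000489) lies on the minus strand of chr15:79995874-80014977. *Pdgfc* (ENSMUSG00000028019) lies on the plus strand of chr3:81036416-81214040, and *Pdgfd* (ENSMUSG00000032006) on the plus strand of chr9:6168584-6378850. The RefSeq promoter table (GRCm38.p6, 250 bases before to 50 after each start) held entries for 4 of the 6 members, *Pdgfa*, *Pdgfc*, *Pdgfd* and *Pdgfra*. The entries of *Pdgfa*, which rose with bleomycin in the stromal cells described below, and of *Pdgfra*, the receptor found almost entirely in those cells, are shown 5′ to 3′ on the gene's strand, with each GC box (GGGCGG, or CCGCCC for the other strand) in capitals. The *Pdgfa* entries are chr5:138994232-138994531 and chr5:138994895-138995194 on the minus strand, and that of *Pdgfra* is chr5:75152001-75152300 on the plus strand.
Pdgfa, start 1: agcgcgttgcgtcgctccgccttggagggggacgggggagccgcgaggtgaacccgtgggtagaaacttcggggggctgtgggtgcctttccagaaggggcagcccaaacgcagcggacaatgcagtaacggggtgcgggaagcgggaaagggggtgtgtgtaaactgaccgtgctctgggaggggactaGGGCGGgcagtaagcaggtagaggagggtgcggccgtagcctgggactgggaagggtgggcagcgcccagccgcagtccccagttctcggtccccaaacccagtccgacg
Pdgfa, start 2: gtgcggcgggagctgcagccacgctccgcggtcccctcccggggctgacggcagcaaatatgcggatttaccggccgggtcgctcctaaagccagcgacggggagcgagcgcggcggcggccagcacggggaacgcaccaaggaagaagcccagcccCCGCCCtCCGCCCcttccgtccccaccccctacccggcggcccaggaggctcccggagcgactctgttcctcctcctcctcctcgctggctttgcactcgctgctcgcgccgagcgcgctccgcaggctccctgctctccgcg
Pdgfra: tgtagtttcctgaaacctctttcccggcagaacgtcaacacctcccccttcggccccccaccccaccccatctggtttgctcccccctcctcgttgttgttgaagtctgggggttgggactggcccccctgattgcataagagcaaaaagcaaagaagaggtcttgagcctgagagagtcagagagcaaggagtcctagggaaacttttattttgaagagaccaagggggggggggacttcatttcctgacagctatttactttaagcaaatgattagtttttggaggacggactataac
The base composition was 67% and 73.3% G or C at the *Pdgfa* starts and 51% at *Pdgfra*. The first *Pdgfa* window held 1 GC box, the second held 2, and the *Pdgfra* window held 0. Over both strands, 35.7% of all 32851 promoters in the table held a GC box. None of the 3 windows held a TATA box (TATAAA on either strand), which 13.6% of all promoters held.

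Libraries held 3355217 to 69765525 UMIs in skin and 28660151 to 137093834 in kidney, and 28900 skin and 56958 kidney cells passed the filters. Cells were assigned to a class when they had UMIs of at least 3 markers of 1 list and led every other list by at least 2, and 28.0% of skin and 9.61% of kidney cells stayed without a class. The skin classes used most below were stromal (3070 cells), mural (127), endothelial (260), Schwann (238), macrophage (7220) and mast (760). Pooled levels of defining genes followed the names: *Col1a1* reached 35383 CPM (UMIs of the gene scaled by all UMIs of the class) in stromal cells, *Acta2* 7047 CPM in mural cells and *Pecam1* 1046 CPM in endothelial cells. The library labelled *SARAWT* PBS 3 had 616 CPM of *Zfyve9*, above the 314 and 222 CPM of the *SARATg* skin libraries. By the study's methods the transgene is a human *ZFYVE9* cDNA, and a human *ZFYVE9* entry exists in the longer gene list only. It had 839 and 187 CPM in *SARAWT* PBS 1 and 2, and 86.6 and 112 CPM in *SARAWT* bleomycin 1 and 2. Every library with this entry thus had UMIs of it although labelled *SARAWT*, and the cause was not tested. In kidney, the library labelled *SARAWT* AA 1 had 160 CPM of *Zfyve9* and the library labelled *SARATg* AA had 19.6 CPM, against 99.6 and 93.3 CPM in the *SARATg* vehicle libraries, so that both AA libraries go against their labels. In 4 *SARAWT* skin libraries (PBS 1 and 2, bleomycin 1 and 2), 7.38% to 55.5% of barcodes were found in a further skin library as well, whereas other skin libraries reached 0.824% and kidney libraries 1.66% to 2.13%.

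*Pdgfrb*, the gene whose promoter drives the Cre, was highest in mural cells, the smooth muscle cells and pericytes of vessel walls. In skin its level was 507 ± 141 CPM (SD, 6 libraries with at least 10 mural cells, range 373 to 758), 112 ± 63.6 CPM in stromal cells (8 libraries) and 51.2 ± 23.4 CPM in mast cells (7 libraries). It was 17 ± 12.3 CPM in Schwann cells (7 libraries), 3.73 ± 5.31 CPM in endothelial cells and 1.42 ± 0.465 CPM in macrophages (8 libraries each). Leukocyte classes other than mast cells thus had at most 1.42 CPM on average.

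A *Pdgfrb* UMI was found in 78.9% of mural cells per library on average, and in 45.4% ± 11.4 after thinning to 1000 UMIs. Cells with fewer UMIs were left out of thinned shares, which kept 5 of 10 mural cells in *SARAWT* bleomycin 2. Macrophages, which were deeper (median 10856.5 UMIs against 7197 in mural cells), had 1.38% with a *Pdgfrb* UMI, and 0.0832% ± 0.0740 after thinning. The mast cell signal was spread over 74 UMIs in 760 cells, with 7.29% of cells positive, a share well above that of macrophages although the mast cells were shallower (median 1301.5 UMIs).

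*Pdgfra* was close to a single-class gene in skin. Stromal cells had 217 ± 86.5 CPM (8 libraries, range 98.4 to 354) and held 11464 of the 11745 *Pdgfra* UMIs of all cells. The next class, endothelial cells, had 1.39 ± 3.94 CPM, from 2 UMIs. In the 127 mural and 760 mast cells no *Pdgfra* UMI was found, and 3 counts there would equal 3.33 and 2.29 CPM.

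**Figure D1:**
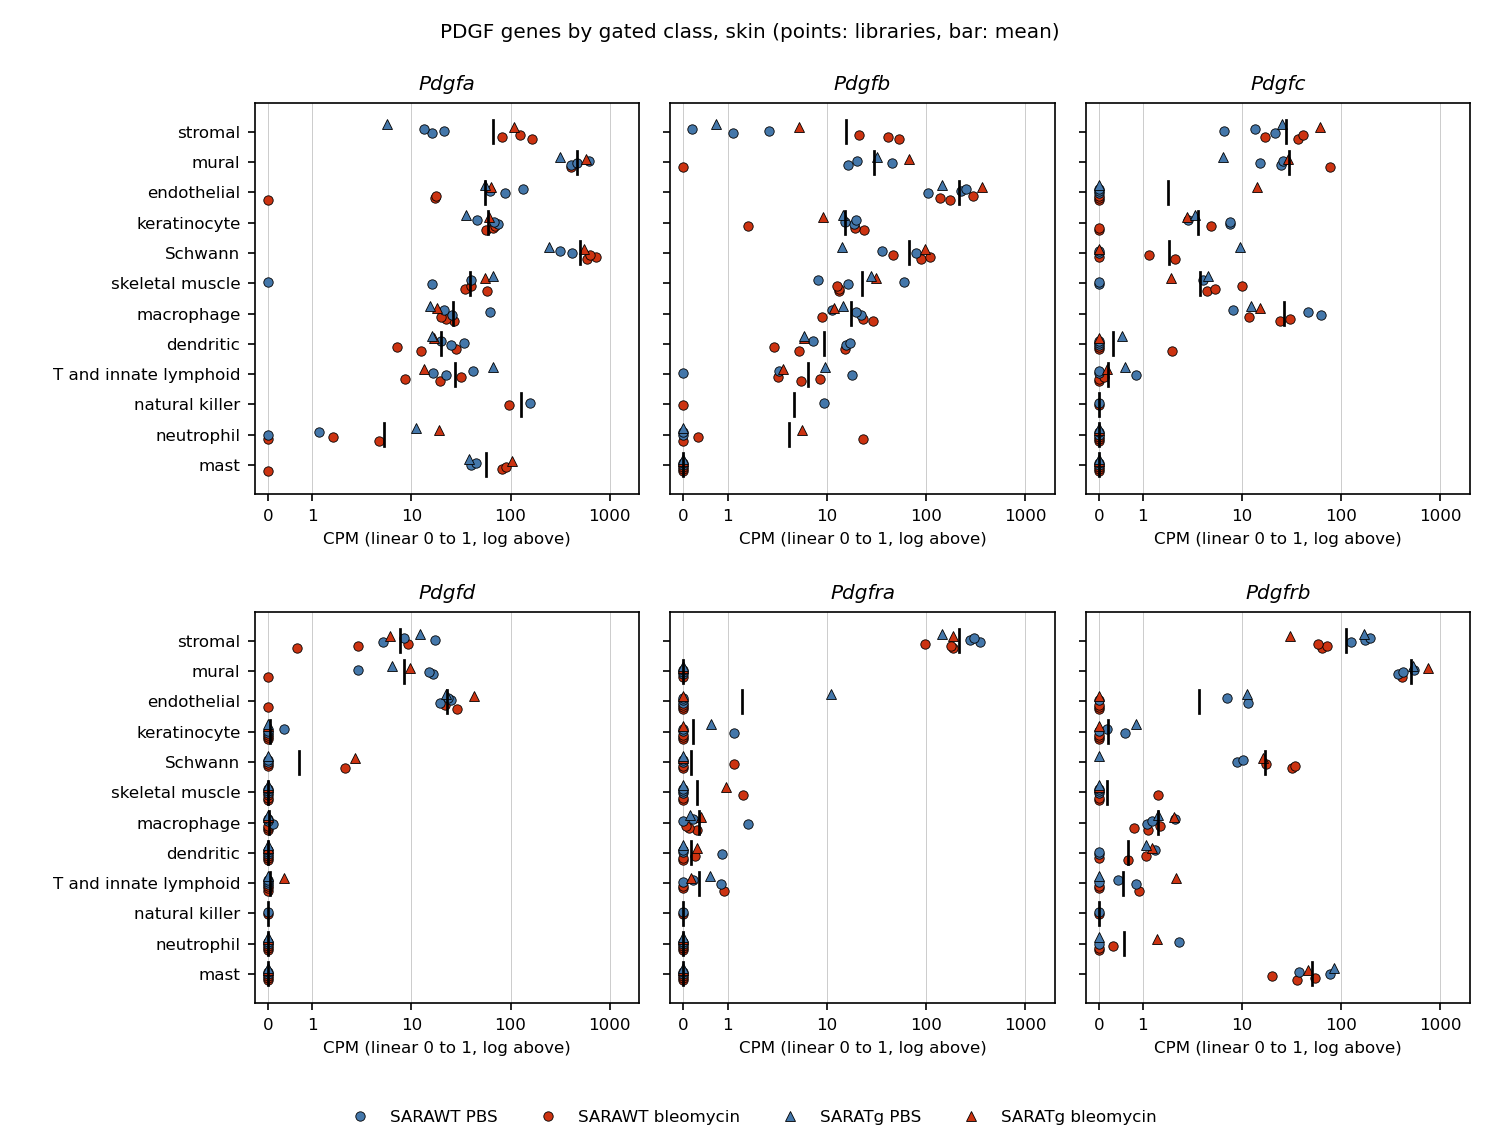
CPM of each PDGF gene (horizontal axis, linear from 0 to 1 and logarithmic above) in each gated class of skin cells (vertical axis). Points are libraries with at least 10 cells of the class, colour gives the treatment, shape the genotype, and the black bar is the mean over libraries; *Pdgfra* stands alone in the stromal row, *Pdgfrb* is highest in the mural row and *Pdgfb* in the endothelial row.

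Among the ligands, *Pdgfa*, which activates PDGFR-α, was highest in Schwann cells and mural cells of skin. Its level was 497 ± 175 CPM in Schwann cells (7 libraries) and 466 ± 115 CPM in mural cells (6 libraries), with overlapping ranges. Schwann cells were higher in 2 of 5 shared libraries (exact sign-flip permutation test p = 0.688, adjusted p = 1), and with 5 libraries this test cannot give a p below 0.0625. Over both treatments, stromal cells followed with 66.9 ± 60.8 CPM, keratinocytes with 59.7 ± 13.3 CPM, mast cells with 56.9 ± 36.3 CPM and endothelial cells with 54.8 ± 43.3 CPM. Stromal cells were above keratinocytes in 4 of 8 libraries. In *SARAWT* skin the stromal mean was 16.8 CPM after PBS and 124 CPM after bleomycin, beside 62.9 and 64.4 CPM in keratinocytes. Their place in this order thus held after bleomycin only. The 2 libraries with at least 10 natural killer cells had 95.9 and 158 CPM. Near the limit of the gate lay 82.3% of natural killer cells and 42.0% of Schwann cells.

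*Pdgfb*, the ligand that endothelium presents to mural cells, was highest in endothelial cells of skin at 214 ± 90.9 CPM (8 libraries, range 104 to 369). Schwann cells had 67.9 ± 35.8 CPM, mural cells 30.4 ± 23.9 CPM and macrophages 17.7 ± 7.01 CPM. Endothelial cells were above Schwann cells in 7 of 7 shared libraries. After thinning to 1000 UMIs, 13.1% ± 3.63 of endothelial cells had a *Pdgfb* UMI, and 0 of 760 mast cells had one before thinning, which allows a level of up to 2.29 CPM.

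*Pdgfc* and *Pdgfd*, the ligands with a CUB domain, differed in place. *Pdgfc* was 29.7 ± 24.6 CPM in mural, 27.9 ± 17.6 CPM in stromal and 26.6 ± 19.6 CPM in macrophage-gated cells and at most 3.78 CPM on average in the other skin classes. *Pdgfd* was highest in endothelial cells (23.0 ± 11.8 CPM, from 34 UMIs in 260 cells), followed by mural (8.45 ± 6.61 CPM) and stromal cells (7.73 ± 5.26 CPM), and macrophages had 1 UMI in 7220 cells. The mural and endothelial values of both genes rest on at most 34 UMIs each.

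Neighbours in the order of levels were compared within libraries for each gene. Of 60 neighbour pairs in skin, 0 passed the adjusted threshold of 0.05 and 10 had an unadjusted p under 0.05 (two-sided exact sign-flip permutation tests over libraries). With 8 libraries the smallest p such a test can give is 0.00781, and the lowest adjusted p was 0.156. After adjustment over 60 pairs, no single pair at that smallest p could pass, so the lack of calls decides nothing. That p of 0.00781 was reached for *Pdgfra* in stromal over endothelial cells (higher in 8 of 8 libraries), for *Pdgfrb* in macrophages over dendritic cells (8 of 8, at 1.42 and 0.672 CPM) and for *Pdgfc* in macrophages over skeletal muscle cells (8 of 8), a class in which 84.6% of cells lay near the limit of the gate. *Pdgfrb* was higher in mural than in stromal cells in 6 of 6 libraries (permutation p = 0.0312, adjusted p = 0.234, the smallest p that 6 libraries allow).

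In kidney the sort held few cells with either receptor. The mural gate took 51 cells and the stromal gate 50, and over all kept cells *Pdgfrb* was 0.234 to 3.12 CPM and *Pdgfra* 0 to 4.13 CPM per library. The libraries with at least 10 mural cells, *SARAWT* vehicle 2 and *SARATg* vehicle 2, had 343 and 466 CPM of *Pdgfrb*, and 311 and 446 CPM of *Pdgfa*. *Pdgfra* had 0 UMIs in the 51 mural cells, which allows up to 9.66 CPM. The 1 library with at least 10 stromal cells (*SARATg* vehicle 2, 37 cells) had 596 CPM of *Pdgfra* and 114 CPM of *Pdgfrb*. Proximal tubule cells, the most numerous kidney class (18937 cells), had 8 *Pdgfrb* UMIs and 2 *Pdgfra* UMIs in all.

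*Pdgfb* was again highest in endothelial cells in kidney, at 182 ± 87.8 CPM (8 libraries, range 112 to 384). Macrophages had 61.7 ± 26.0 CPM and natural killer cells 53.5 ± 12.9 CPM (9 libraries each), and endothelial cells were above macrophages in 8 of 8 libraries (exact sign-flip permutation p = 0.00781, adjusted p = 0.258). *Pdgfd* was 53.1 ± 14.2 CPM in endothelial cells and 23.6 ± 12.8 CPM in cells of the thick ascending limb, with endothelial cells higher in 8 of 8 libraries (same exact permutation test, p = 0.00781, adjusted p = 0.258). Mural *Pdgfd* was 77.9 and 19.8 CPM in the 2 libraries and stromal *Pdgfd* 28.4 CPM in 1 library, beside an endothelial range of 34.9 to 78.4 CPM that holds the higher mural value only.

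*Pdgfa* was broad in the kidney tubule, with 58.0 ± 29.7 CPM in the distal convoluted tubule, 45.3 ± 12.5 CPM in principal cells of the collecting duct and 32.5 ± 16.6 CPM in the proximal tubule. *Pdgfc* was highest in mural cells, at 46.7 and 69.4 CPM in the 2 libraries, and 16.2 CPM in the stromal cells of 1 library. It was 12.9 ± 4.87 CPM in the proximal tubule and 10.9 ± 6.99 CPM in the distal convoluted tubule, and 5.07 ± 4.29 CPM in macrophages. Of 66 neighbour pairs in kidney, 0 passed the adjusted threshold, and 9 had an unadjusted p under 0.05 by the same test. A single pair could not pass here either.

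**Figure D2:**
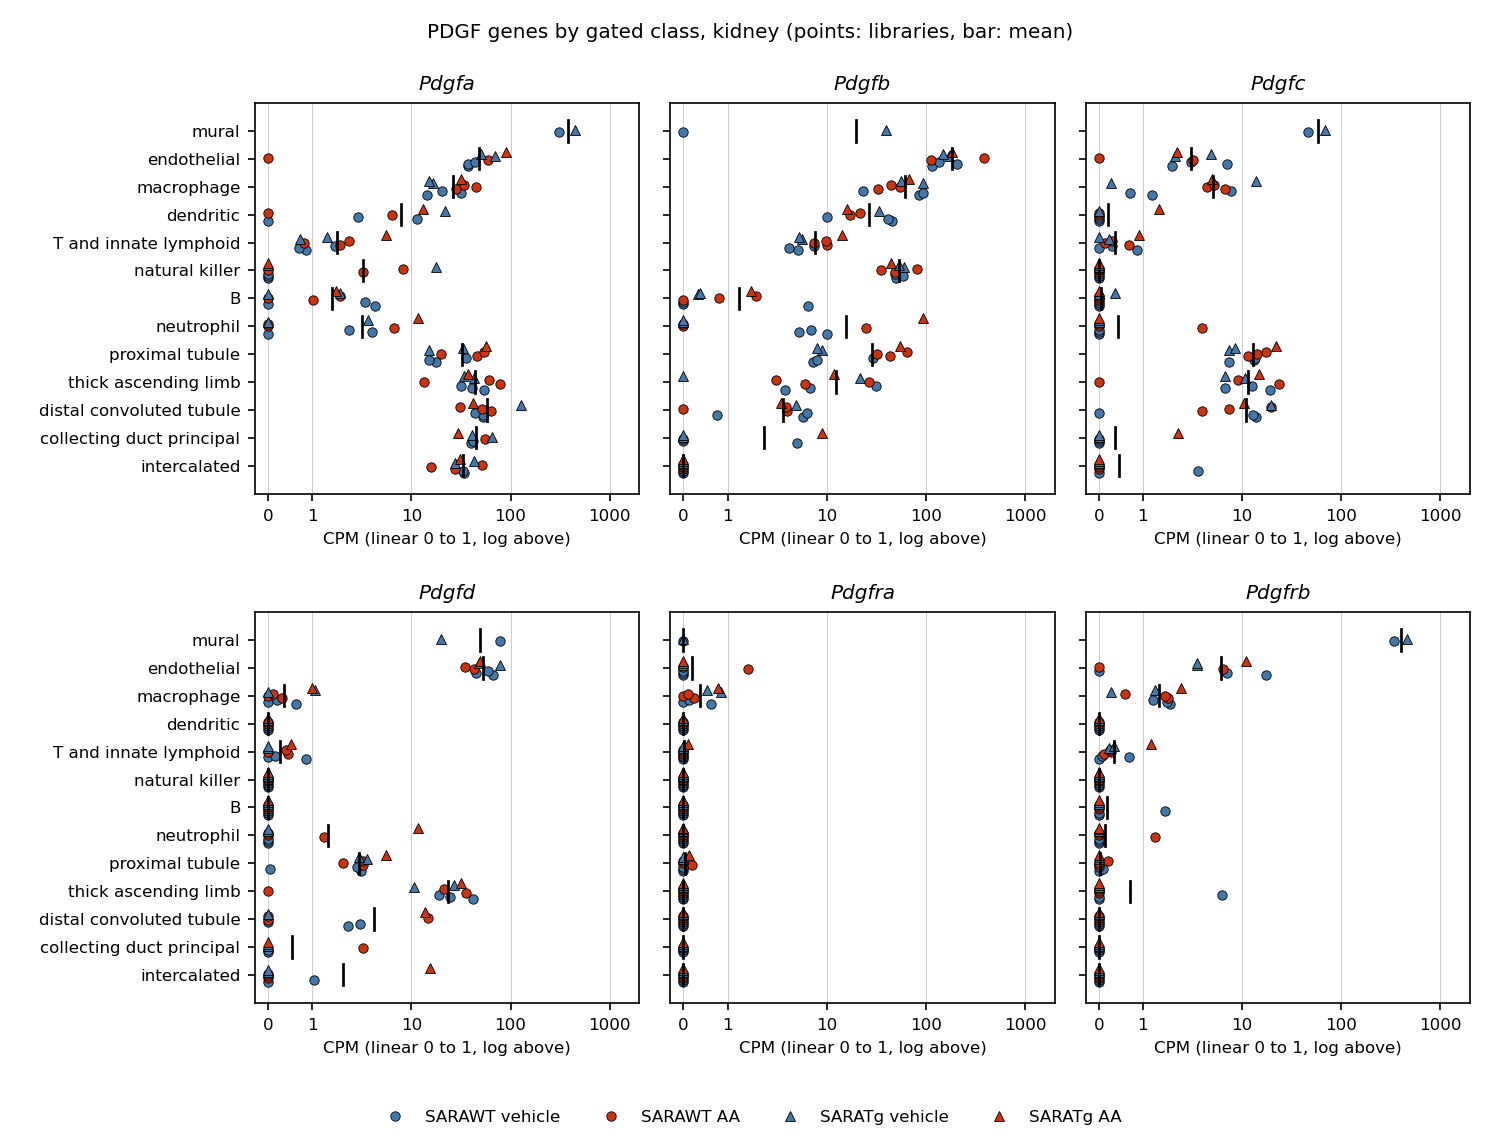
CPM of each PDGF gene (horizontal axis, linear from 0 to 1 and logarithmic above) in each gated class of kidney cells with at least 10 cells in at least 2 libraries (vertical axis). Points are libraries, colour gives the treatment, shape the genotype, and the bar is the mean; *Pdgfb* and *Pdgfd* are high in the endothelial row, *Pdgfa* extends over the tubule rows, and *Pdgfrb* is high only among the mural points plotted.

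Mural and stromal cells, the skin classes with the highest *Pdgfrb* levels, were then compared within 6 libraries. Per library, mural *Pdgfa* was 316 and 573 CPM in *SARATg* PBS and bleomycin, 406, 468 and 623 CPM in *SARAWT* PBS 1 to 3 and 410 CPM in *SARAWT* bleomycin 2. Mural *Pdgfrb* in the same order was 535, 758, 373, 423, 546 and 410 CPM. Each of these values lay above every stromal value of the same gene, which reached at most 163 CPM for *Pdgfa* and 198 CPM for *Pdgfrb*. Mural *Pdgfb* ranged from 0 to 68.0 CPM with at most 7 UMIs in a library.

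With library as a block, edgeR called 4 of the 5 members tested, where 35.8% of all 8917 genes tested were called (34.1% by DESeq2, which called the same number of members). Of these, *Pdgfra* entered the test through stromal cells alone, and *Pdgfb* passed the filter only with its values in mural cells, where it was higher. The calls of *Pdgfra* and *Pdgfb* thus add no support to the count. *Pdgfa* was higher in mural cells by 3.96 on the log2 scale (SE 0.45, adjusted p = 1.39e-06), *Pdgfb* by 3.36 (SE 0.77, adjusted p = 0.00204) and *Pdgfrb* by 1.83 (SE 0.36, adjusted p = 0.000522). *Pdgfra* was lower in mural cells, with 0 UMIs in 115 mural cells against 10591 UMIs in 2739 stromal cells, which makes it at least 60.0-fold lower when 3 counts over the mural cells of all 6 libraries (3.61 CPM) serve as the floor. *Pdgfc* differed by −0.09 (SE 0.48, adjusted p = 0.915), and *Pdgfd* was too low for the test. Without the library block *Pdgfb* was no longer tested, and the other 3 calls stood.

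Cells of the mural gate were divided by whether they held a UMI of a pericyte gene (*Kcnj8*, *Abcc9*, *Higd1b* or *Vtn*). In skin, the 71 cells with such a UMI had 551 CPM of *Pdgfa* and 545 CPM of *Pdgfrb*, and the 56 cells without had 453 and 502 CPM. In kidney, *Pdgfrb* was 638 CPM in the 15 cells with a pericyte gene (exact Poisson 95% interval 502 to 800) and 218 CPM in the 36 cells without (157 to 294). These intervals cover counting error only, and the kidney difference was not tested over libraries because too few cells were present.

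Other genes of the PDGF pathway followed no common direction between the classes. Of 45 pathway genes 42 were tested; 10 were higher in mural cells, 9 were lower and 23 did not pass, with a median difference of −0.17 on the log2 scale beside −0.19 for all genes tested. Thus 19 of 42 were called, where 35.8% of all genes were called in this comparison, and the counts by role below are to be read against that share. Among co-receptors, *Cspg4*, which encodes the pericyte antigen NG2, was higher in mural cells by 2.27 and *Lrp1* lower, at −2.34. Among negative regulators of receptor signalling, 4 of 11 were higher, 2 were lower and 5 did not pass, with *Spry4* at 2.48, *Slc9a3r1* at 1.96 and the phosphatase gene *Ptpn1* at 1.81. Among genes of ligand maturation and extracellular control 4 of 7 were lower and 0 higher, with the convertase gene *Pcsk5* at −4.22 the PDGF-binding matrix protein gene *Sparc* at −2.61, and *Pcsk6* at 0 CPM in every mural library against 43.5 CPM on average in stromal cells (its fitted difference depends on the prior count). The early response gene *Fos* was higher by 1.63, and the adaptor gene *Nck1* was lower, at −1.64. Their adjusted p by edgeR ran from 1.71e-06 (*Lrp1*) to 0.00569 (*Nck1*).

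Bleomycin was compared with PBS in the *SARAWT* skin libraries in every class with enough cells, 3 against 3 except for mast cells, neutrophils and Schwann cells, where 2 PBS libraries stood against 3 bleomycin libraries. Of 20 tests of members in 10 classes, 3 were called by edgeR and 6 had an unadjusted p under 0.05, where 0.934% of all gene tests over these classes were called. DESeq2 called 5 of the 20, where it called 2.71% of all gene tests. All 3 calls lay in stromal cells, where 4.53% of 11140 genes were called: *Pdgfa* and *Pdgfb* rose, and *Pdgfrb* fell. There 2832 of the 11140 genes had an unadjusted p under 0.05 by edgeR. The share of all genes with groups that do not overlap is not given, so non-overlap below only describes the values.

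Stromal *Pdgfa* was 16, 21.1 and 13.4 CPM in *SARAWT* PBS 1 to 3, and 163, 82.3 and 125 CPM in bleomycin 1 to 3. Every bleomycin library lay above every PBS library. The fold change was 7.83, or 2.97 on the log2 scale (SE 0.32, adjusted p = 0.0155). A *Pdgfa* UMI was found in 14.3%, 10.6% and 11.1% of stromal cells after PBS and in 38%, 12.4% and 43.6% after bleomycin, where bleomycin 2 lay inside the PBS range. At 1000 UMIs a cell these shares were 1.55%, 1.18% and 1.19% against 10.4%, 2.46% and 10.4%, and did not overlap. They leave out shallower cells, and PBS 2 and bleomycin 2 kept 85 of 151 and 122 of 194 cells.

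Stromal *Pdgfrb* was 125, 175 and 198 CPM after PBS, and 64.3, 72.4 and 57.9 CPM after bleomycin. The groups did not overlap, and the receptor fell by 1.36 on the log2 scale (SE 0.26, adjusted p = 0.0337), to 2.57-fold lower. *Pdgfra* was 354, 278 and 304 CPM after PBS and 189, 178 and 98.4 CPM after bleomycin. Its groups did not overlap either, but the log2 difference of −0.99 (SE 0.27) did not pass, with an adjusted p of 0.0740 by edgeR. It passed with DESeq2 (adjusted p = 0.0175, where 9.73% of all genes were called) and without the filter on low counts (adjusted p = 0.0274, where 5.91% were called).

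The other ligands did not pass in stromal cells. *Pdgfc* was 21.4, 6.59 and 13.6 CPM after PBS and 36.9, 16.9 and 41.4 CPM after bleomycin, a log2 difference of 1.11 (SE 0.41, adjusted p = 0.141), with 1 bleomycin library inside the PBS range. *Pdgfd* was 5.19, 17.1 and 8.50 CPM against 0.659, 2.92 and 9.21 CPM, at most 46 UMIs in a library, with overlapping groups (−1.07, SE 0.80, adjusted p = 0.435).

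Same-numbered PBS and bleomycin libraries deviated together, and with the replicate number as a block 11.2% of stromal genes and 3.04% of all gene tests over classes were called. There *Pdgfa* (3.00, adjusted p = 0.00947), *Pdgfb* (5.55, adjusted p = 0.00403) and *Pdgfrb* (−1.32, adjusted p = 0.0252) kept their calls, and *Pdgfc* (1.24, adjusted p = 0.0263) and *Pdgfra* (−1.04, adjusted p = 0.0438) passed as well. Without bleomycin 1 no member passed in stromal cells (*Pdgfa* 2.69, adjusted p = 0.0572, *Pdgfb* 5.11, adjusted p = 0.0652, *Pdgfrb* −1.37, adjusted p = 0.137). *Pdgfrb* also lost its edgeR call without PBS 2 (−1.32, adjusted p = 0.0934), PBS 3 (−1.13, 0.0634), bleomycin 2 (−1.42, 0.0707) or bleomycin 3 (−1.24, 0.0897). It kept the call without PBS 1 (−1.58, 0.0329). It lost the call with a stricter gate as well (−1.24, adjusted p = 0.0602) and within libraries 1 and 2 of each group (−1.04, adjusted p = 0.119). *Pdgfa* without PBS 1 or PBS 3, whose *Zfyve9* or *ZFYVE9* levels stood apart, had edgeR adjusted p of 0.0306 and 0.0235. Each of these fits kept the other of these libraries, and the part of these levels in the bleomycin differences was not tested. With shared barcodes left out, *Pdgfa* had a log2 difference of 2.78 (adjusted p = 0.0580), *Pdgfb* 6.02 (0.0116) and *Pdgfrb* −1.01 (0.290).

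**Figure D3:**
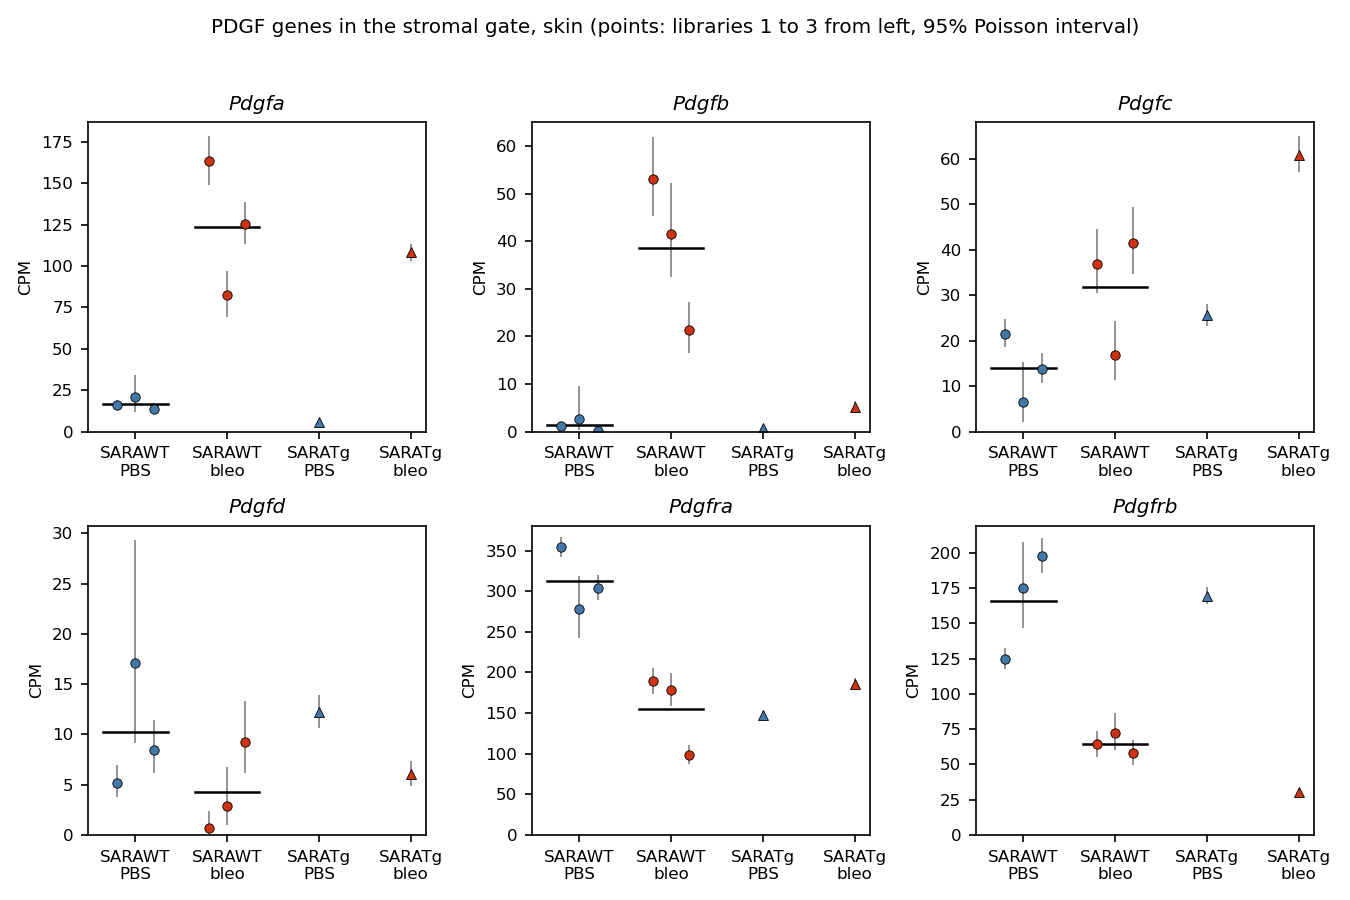
CPM of each PDGF gene in stromal-gated skin cells (vertical axis, from 0) by genotype and treatment (horizontal axis). Points are libraries in the order of their numbers with exact Poisson 95% intervals (counting error only). The bar is the mean of 3 *SARAWT* libraries. *Pdgfa* and *Pdgfb* are higher and *Pdgfra* and *Pdgfrb* lower in every *SARAWT* bleomycin library than in every *SARAWT* PBS library. The share of all genes with such separation is not given.

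Stromal *Pdgfb* was 1.13, 2.64 and 0.198 CPM after PBS, from 10, 2 and 1 UMIs, and 53.1, 41.4 and 21.4 CPM after bleomycin, from 161, 71 and 65 UMIs. The log2 difference was 5.45 (SE 0.63, adjusted p = 0.0193 by edgeR). With these PBS counts *Pdgfb* entered the test through the bleomycin libraries alone, so that its call adds no support to the count of calls. The UMIs after bleomycin came from few cells: 19 of 166, 7 of 194 and 13 of 165. Of these UMIs 97.5%, 95.8% and 86.2% lay in cells that also held a UMI of a Schwann gate marker, which were 27.1%, 26.3% and 37.0% of the stromal cells. Such cells were about as common in *SARAWT* PBS 1 to 3, at 31.7%, 24.5% and 28.4% of the stromal cells.

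The neural crest transcription factor genes *Sox10* and *Foxd3* moved with *Pdgfb* in the stromal gate. *Sox10* was 0.225, 0 and 0 CPM after PBS and 16.2, 16.3 and 8.88 CPM after bleomycin, and *Foxd3* was 0.113, 1.32 and 0 CPM against 20.4, 21.6 and 11.8 CPM. Over the whole Schwann list of 8 markers, 4 to 7 had a UMI after PBS (summed level 53.0 to 111 CPM, with *Sox10* at 0 in PBS 2 and 3) and 5 to 7 after bleomycin (68.2 to 103 CPM, with *Gfra3* at 0 in bleomycin 1 and 2). In stromal cells without any Schwann gate marker, *Pdgfb* was 1.22, 2.62 and 0.291 CPM after PBS and 2.17, 4.10 and 4.99 CPM after bleomycin, so that the groups overlapped and the gene was too low for the test.

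Of the stromal *Pdgfa* UMIs, 66.1%, 68.8% and 45.4% after bleomycin and 21.1%, 31.2% and 35.3% after PBS lay in cells with a Schwann gate marker, and 10 cells held 110 of the 141 *Pdgfa* UMIs of bleomycin 2. *Pdgfa* rose also without those marker-bearing cells, by less than in the whole gate. In the stromal cells without a Schwann marker it was 19.5, 28.8 and 12.8 CPM after PBS and 91, 60.2 and 115 CPM after bleomycin (log2 difference 2.35, adjusted p = 0.0488, with 0.383% of genes called). With at least 2 of *Dcn*, *Lum* and *Dpt*, core fibroblast matrix genes, it was 13.7, 14.4 and 11.5 CPM against 90.1, 55.2 and 109 CPM (2.73, adjusted p = 0.0211, with 1.36% called). Under both conditions together the log2 difference was 2.43 (adjusted p = 0.0324, with 0.607% called). *Pdgfrb* kept its direction in these 3 settings, from −1.20 to −1.41, with adjusted p between 0.0646 and 0.0733, and these settings were chosen after the data had been seen.

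Within the stromal cells that held at least 2 of the 3 core genes, cells were further divided by a UMI of *Mfap5* or *Cthrc1*, which the study used as markers of noncanonical pericytes, or of *Pi16*, a gene of universal fibroblasts. Among *Cthrc1*-positive cells *Pdgfa* was 10.2, 19.4 and 7.65 CPM after PBS and 95.8, 52.6 and 144 CPM after bleomycin. Among *Mfap5*-positive cells it was 11, 6.17 and 7.81 CPM against 76.9, 34.3 and 147 CPM, and among *Pi16*-positive cells 7.18, 9.83 and 11.5 CPM against 62.4, 29.9 and 125 CPM. In none of these subsets did the groups overlap, but the *Pdgfa* values of PBS 2 rest on few UMIs. Its whole stromal gate held 16, and in that of bleomycin 2, 10 cells held 110 of 141. The subsets can share cells and are not separate tests. *Pdgfrb* among *Pi16*-positive cells overlapped, at 136, 171 and 189 CPM against 109, 135 and 136 CPM, whereas among cells without *Pi16* it was 117, 217 and 204 CPM against 72.0, 65.1 and 54.5 CPM. The level of *Pi16* itself in the stromal gate was 863, 1199 and 320 CPM after PBS and 87.7, 179 and 29.3 CPM after bleomycin. *Mfap5* was 495, 619 and 344 CPM against 232, 196 and 167 CPM, and *Cthrc1* 22.5, 63.3 and 85.2 CPM against 393, 184 and 86.5 CPM. *Col1a1* was 14599, 18335 and 28659 CPM against 6965, 10436.5 and 8787 CPM. The part of these shifts in the member results was not tested.

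**Figure D4:**
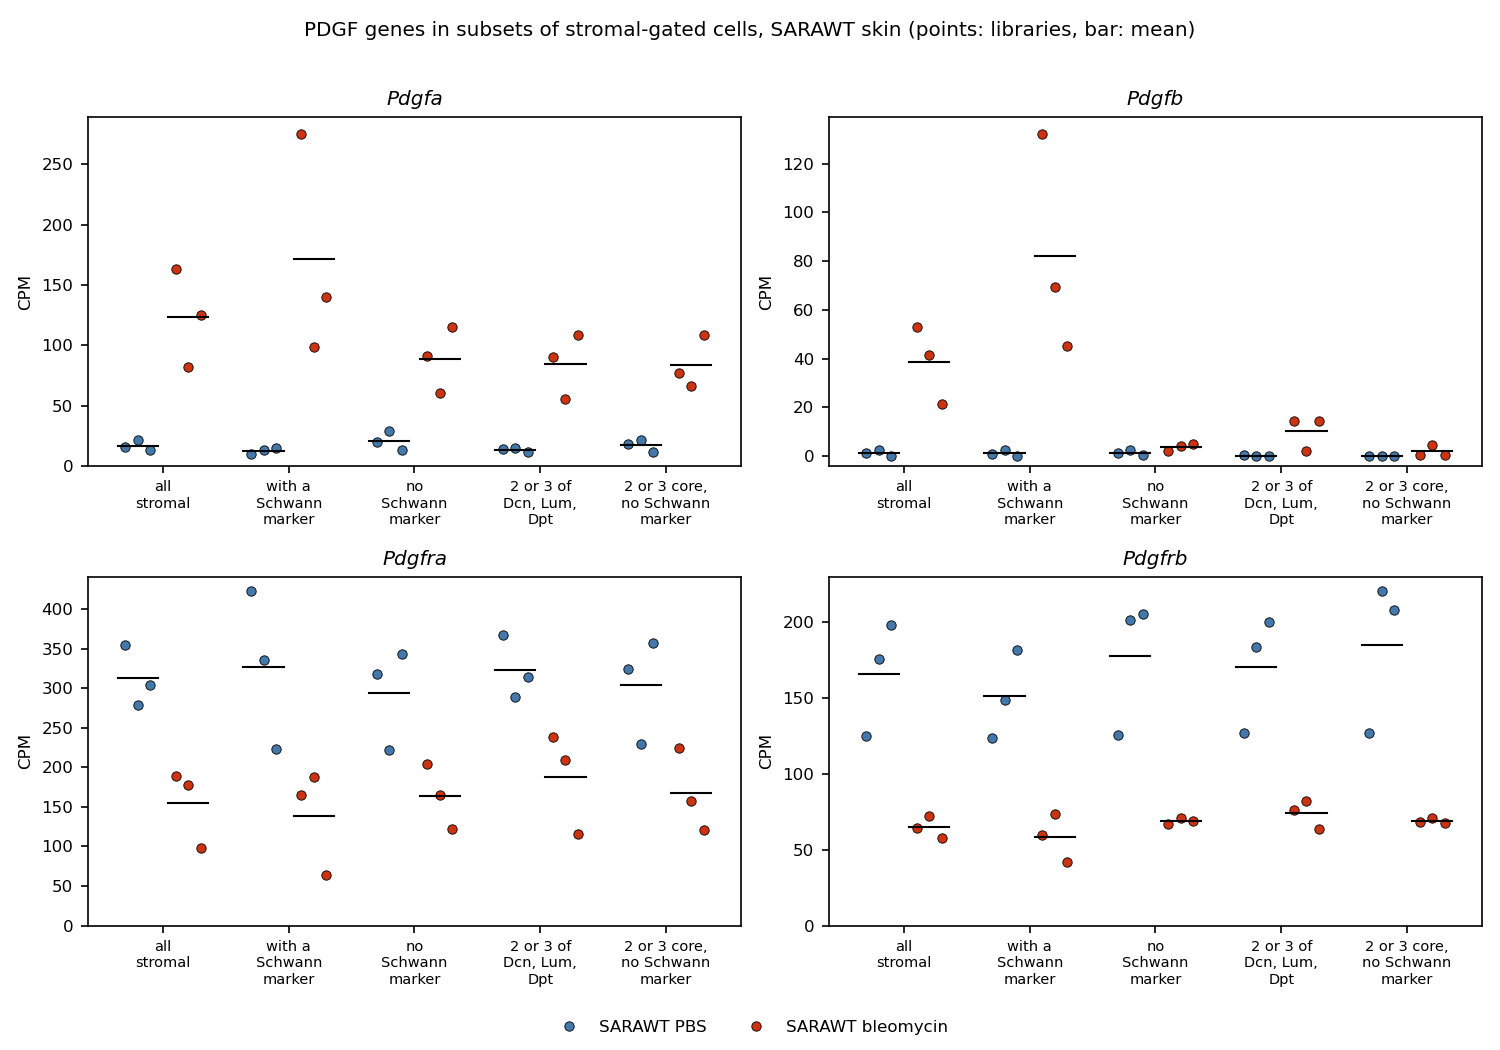
CPM of *Pdgfa*, *Pdgfb*, *Pdgfra* and *Pdgfrb* (vertical axes) in all stromal-gated *SARAWT* skin cells and in subsets with or without a UMI of a Schwann gate marker and with 2 or 3 of the core genes *Dcn*, *Lum* and *Dpt* (horizontal axis). Points are libraries and bars are means; the groups stay apart for *Pdgfa* in every subset, whereas for *Pdgfb* the bleomycin points fall to at most 4.99 CPM once cells with a Schwann marker are left out.

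Outside the stromal gate, Schwann-gated cells had 420 and 315 CPM of *Pdgfa* in PBS 1 and 3 (PBS 2 had 6 such cells and was left out) and 593, 723 and 627 CPM after bleomycin, groups that did not overlap (log2 difference 0.92, SE 0.26, adjusted p = 0.110). With DESeq2 it passed (0.93, adjusted p = 0.0470), where 4.02% of all genes were called. Endothelial *Pdgfa* went the other way, with 88.8, 62.5 and 132 CPM after PBS and 0, 17.3 and 17.5 CPM after bleomycin, from 0, 1 and 4 UMIs, and was too low for the test. Endothelial *Pdgfb* overlapped between groups at 104, 225 and 255 CPM against 175, 138 and 302 CPM (0.18, SE 0.46, adjusted p = 0.910). Macrophage *Pdgfc* was 63.5, 46.7 and 8.09 CPM after PBS and 24.0, 30.9 and 11.8 CPM after bleomycin, with library 3 lowest in both groups (−0.69, SE 0.64, adjusted p = 0.742). Within libraries 1 and 2 alone, which share the longer gene list, it fell by 0.90 (adjusted p = 0.0383), where 10% of all macrophage genes were called.

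Summed over all cells of a library, which cannot tell fewer cells of a type from less RNA per cell, *Pdgfrb* was 38.6, 53.0 and 27.2 CPM after PBS and 11.5, 8.21 and 6.88 CPM after bleomycin. The groups did not overlap, and the log2 difference was −1.99 (SE 0.30, adjusted p = 0.0520). *Pdgfra* was 101, 68.3 and 33.1 CPM against 25.7, 14.8 and 6.19 CPM (−1.94, SE 0.55, adjusted p = 0.134). With the replicate block, where 4.15% of all genes were called, these were −1.97 (adjusted p = 0.0197) and −2.04 (adjusted p = 0.0167). Without PBS 3, where 6.77% were called, *Pdgfrb* also passed (−2.17, adjusted p = 0.0187). Within libraries 1 and 2 of each group, *Pdgfrb* (−1.99, adjusted p = 0.0373) and *Pdgfra* (−1.86, adjusted p = 0.0481) passed, where 5.13% of all genes were called. DESeq2 also called *Pdgfrb* (−1.98, adjusted p = 2.45e-07), *Pdgfra* (−1.93, adjusted p = 0.00366) and *Pdgfd* (−2.44, adjusted p = 0.0201) over all cells, where DESeq2 called 8.87% and edgeR 0 of 15244 genes. *Pdgfa* over all cells had a log2 difference of 0.78 (SE 0.28, adjusted p = 0.200).

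Of the 45 other pathway genes, 43 were tested in stromal cells, where edgeR called 4.53% of all 11140 genes, 231 of them lower. The median log2 difference of the 43 pathway genes was −0.26, beside −0.02 for all genes. Of the called pathway genes reported here, 3 were lower after bleomycin. *Pcsk5* (−2.47, adjusted p = 0.0248) and *Pcsk6* (−3.37, adjusted p = 0.0318), convertases that can cleave PDGF precursors, and the early response gene *Egr1* (−1.32, adjusted p = 0.0481) fell. In Schwann cells, where 28 of all 3853 genes were called, 1 of 28 pathway genes passed, *Stat3* (−1.42, adjusted p = 0.0439), and in the other 8 classes 0 passed by edgeR, with 1 to 6 genes at an unadjusted p under 0.05.

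The *SARATg* skin libraries, 1 per treatment, gave stromal *Pdgfa* at 5.72 CPM after PBS and 108 CPM after bleomycin, and *Pdgfrb* at 170 and 30.2 CPM. Both genes lay on the same sides as in *SARAWT* mice. *Pdgfb* was 0.744 and 5.22 CPM, *Pdgfc* 25.5 and 60.8 CPM, and *Pdgfra* 147 and 186 CPM. *Pdgfra* was thus not lower after bleomycin in the *SARATg* pair, but its difference from the effect in libraries labelled *SARAWT* did not pass (0.93 on the log2 scale, SE 0.51, adjusted p = 0.579).

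For all members, the bleomycin effect in *SARATg* minus that in *SARAWT* was tested 26 times over classes; edgeR called 0, with 5 at an unadjusted p under 0.05 and DESeq2 calling 0 as well, where 0.203% of all gene tests were called by edgeR and 0.255% by DESeq2. The lowest adjusted p, 0.245, belonged to stromal *Pdgfb* (−3.15, SE 0.75), followed in stromal cells by *Pdgfrb* (−1.61, SE 0.50, adjusted p = 0.346). Without stromal cells that held a Schwann marker the *Pdgfb* value turned to 0.25. With 1 *SARATg* library per treatment these tests borrow their spread from the *SARAWT* libraries. Of these, PBS 3 had a *Zfyve9* level that goes against its label. PBS 1 and 2 and bleomycin 1 and 2 had UMIs of the human *ZFYVE9* entry, most in PBS 1, also against their labels.

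In kidney, AA was compared with vehicle in the *SARAWT* libraries. Of 16 tests of members, edgeR and DESeq2 called 0, with 1 at an unadjusted p under 0.05 in each, where 0.145% of all gene tests were called by edgeR, 0.42% by DESeq2 and 0.0893% by edgeR with the replicate block. That test was *Pdgfb* in the proximal tubule, the segment that AA injures. It was 7.29, 7.97 and 29.2 CPM in vehicle 1 to 3 and 44.1, 32.3 and 65.2 CPM in AA 1 to 3. The groups did not overlap, and the log2 difference was 1.47 (SE 0.57, adjusted p = 0.499). Without AA 1, whose *Zfyve9* goes against its label, the difference was 1.5 (adjusted p = 0.708).

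Vehicle 3 stood apart in these cells by *Havcr1*, the tubular injury gene that encodes KIM-1. *Havcr1* in proximal tubule cells was 0.886, 3.43 and 60.3 CPM in vehicle 1 to 3 and 35.2, 22.8 and 32.8 CPM in AA 1 to 3. The library labelled vehicle 3 was thus above every AA library. Without vehicle 3, *Pdgfb* in the proximal tubule was higher after AA by 2.39 (adjusted p = 0.0225, with 2.56% of genes called), and with the other vehicle libraries left out in turn it did not pass. The *SARATg* libraries had 8.97 and 7.92 CPM of *Pdgfb* after vehicle and 54.7 CPM after AA, beside *Havcr1* at 0.971, 5.78 and 42.2 CPM. Across all 9 libraries, the 4 with the lowest *Havcr1* in these cells were the 4 with the lowest *Pdgfb*, and the part of injury in vehicle 3 was not tested.

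*Pdgfa* in the proximal tubule overlapped between groups at 17.6, 15.2 and 35.9 CPM after vehicle and 45.4, 19.8 and 53.9 CPM after AA (0.56, SE 0.44, adjusted p = 0.579). *Pdgfc* was 7.45, 13.4 and 13.5 CPM against 11.5, 14.1 and 17.6 CPM (0.14, SE 0.27, adjusted p = 0.816). Macrophage *Pdgfb* was 85.7, 93.9 and 23.0 CPM after vehicle and 33.1, 55.1 and 44.9 CPM after AA, with vehicle 3 the lowest (−0.58, SE 0.46, adjusted p = 0.837). Macrophage *Pdgfc* was 1.24, 0.701 and 7.85 CPM, from 2, 2 and 123 UMIs, against 6.77, 4.45 and 5.27 CPM, and without vehicle 3 it was higher after AA by 2.65 (adjusted p = 0.0471, with 4.59% of genes called). Endothelial *Pdgfb* was 115, 206 and 135 CPM after vehicle and 112 and 384 CPM in AA 1 and 2, since AA 3 had 4 endothelial cells, and the groups overlapped (0.47, SE 0.51, adjusted p = 1). Over all cells without vehicle 3, *Pdgfb* was higher by 1.05 (adjusted p = 0.0194, with 31.9% of genes called). In the other pathway genes 1 of 16 tested passed in intercalated cells, *Pik3r1* (−1.98, adjusted p = 0.0296), where 100 of all 3976 genes were called, 29 higher and 71 lower, and 0 of 43 in the proximal tubule, where 3 had an unadjusted p under 0.05.

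**Figure D5:**
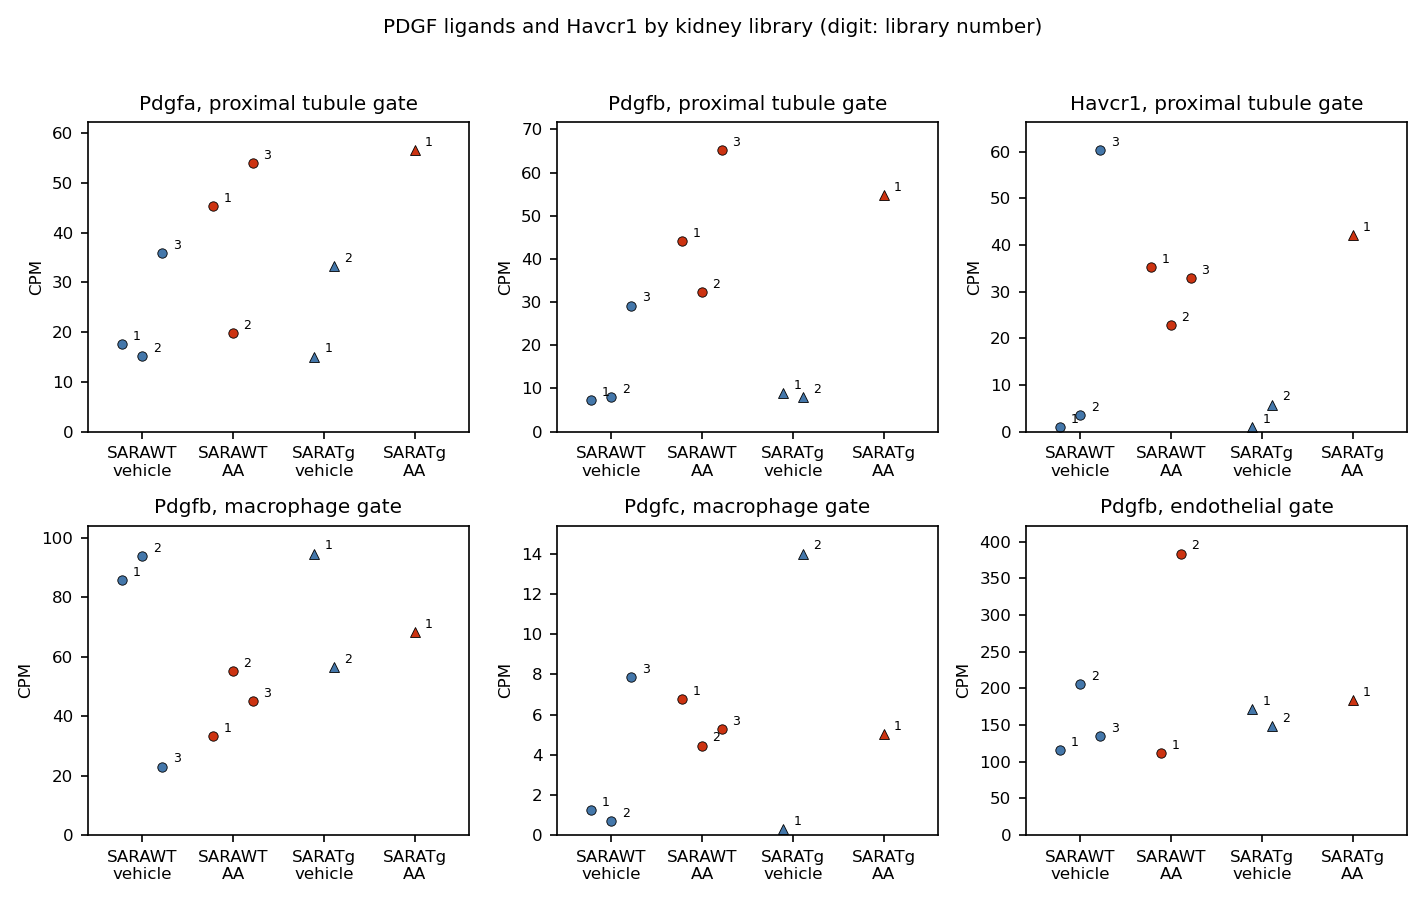
CPM (vertical axes, from 0) of *Pdgfa*, *Pdgfb* and *Havcr1* in proximal tubule cells, *Pdgfb* and *Pdgfc* in macrophages and *Pdgfb* in endothelial cells by kidney group (horizontal axes). Each point is a library with at least 10 cells of the class, labelled with its number; vehicle 3 has the highest *Havcr1* (60.3 CPM) and lies above the other vehicle libraries for *Pdgfb* in the proximal tubule (29.2 CPM).

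Between *SARATg* and *SARAWT* kidneys after vehicle, 2 libraries against 3, edgeR and DESeq2 called 0 of 12 tests of members and 0 had an unadjusted p under 0.05 in gated classes, where 0.0274% of all gene tests were called by edgeR, 0.23% by DESeq2 and 1.15% by edgeR with the replicate block. Over all cells *Pdgfra* was 0.0111, 0.225 and 0.0407 CPM in *SARAWT* and 0.121 and 4.13 CPM in *SARATg*, with 152 UMIs in *SARATg* vehicle 2, the library that held 37 of the 50 stromal cells. The AA effect in *SARATg* minus that in *SARAWT*, which rests on the only library labelled *SARATg* AA and includes the library labelled *SARAWT* AA 1, both with *Zfyve9* levels against their labels, was tested 20 times; edgeR and DESeq2 called 0, with 2 and 1 at an unadjusted p under 0.05, where 0.00458% of all gene tests were called by edgeR and 0.0573% by DESeq2.

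Genes most like each member were sought over the mean log2(CPM + 1) of 23 classes of both tissues among 12371 genes. The values are descriptions over classes that share libraries and depth. *Pdgfra* was most like *Sfrp4* (Pearson r = 0.99), *Serpina3c* (0.99) and *Tnmd* (0.99), and *Pdgfrb* most like *Itga10* (0.94), *Lhfp* (0.92) and *S1pr3* (0.90). Over these classes *Pdgfra* averaged 217 CPM in skin stromal cells and at most 1.39 CPM in any other, so its r values rest mainly on that class. *Pdgfa* was most like *Kif13a* (0.88), *Dag1* (0.88) and *Bcl2l2* (0.87), and *Pdgfd* most like *Dysf* (0.89), *Tns2* (0.88) and *Esam* (0.86), the last a marker of the endothelial gate. *Pdgfb* reached only 0.74 with *Rhoc* and *Fbxl2* and 0.73 with *Fam219a*, and *Pdgfc* 0.78 with *Lpl*, 0.76 with *Adcy9* and 0.75 with *Gdf15*. Among the members themselves, *Pdgfa* and *Pdgfrb* were most alike (0.56), and *Pdgfb* and *Pdgfra* least (−0.02).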

How the data were processed

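GFP+ cells of 8 skin and 9 kidney libraries were profiled by droplet 3′ single-cell RNA sequencing. The deposited matrices hold whole-number UMI counts for each gene in each cell. The authors obtained these counts with Cell Ranger on mm10, without normalization (versions 4.0.0, 3.1.0 and 3.0.2 per the file headers). The submitters' processing notes also name Seurat 2.3.4. *SARAWT* skin libraries 1 and 2 of both treatments have a longer gene list, and only the 30406 genes shared by all libraries were used.

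Kept cells had 200 or more genes and no more than 20% of UMIs from mitochondrial genes, predicted doublets were removed, and classes were gated by markers (at least 3 markers, a lead of 2). UMIs were summed per library and class with at least 10 cells. Differences were tested with edgeR 4.0.16 in R 4.3.3 (filterByExpr, TMM, quasi-likelihood test, Benjamini-Hochberg adjustment over all genes of a fit, threshold 0.05), with DESeq2 1.42.0 as an alternative. Shares were taken after thinning to 1000 UMIs a cell, and cells with fewer UMIs were left out. Neighbouring class levels were compared by exact two-sided sign-flip permutation tests on log2(CPM + 1), adjusted per tissue. Likeness used genes fixed by rule, the 3 with the highest Pearson r per member. Intervals are exact Poisson intervals at 95%, and the floor is 3 counts. On simulated data with 200 genes changed by 2 on the log2 scale, edgeR recovered 72.0% in skin stromal cells, 62.0% in the kidney proximal tubule, 78.0% between mural and stromal cells and 54.0% between *SARATg* and *SARAWT* kidney macrophages, the lowest of 6 fits simulated. False calls made up 5.88%, 7.46%, 9.30% and 12.9% of these calls, above the nominal 5%.

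Same-numbered *SARAWT* PBS and bleomycin skin libraries deviated together in stromal cells. The correlation of deviations from group means was 0.195 to 0.375 over 3 pairs, against −0.24 to 0.0366 for pairs of other numbers. In all cells these ranges were 0.116 to 0.541 and −0.41 to 0.218, which overlap. In skeletal muscle they were −0.263 to 0.165 and −0.154 to 0.341. Libraries 1 and 2 also share the longer gene list, and the replicate block was run as the paired fit. In kidney the same-number correlations ran from −0.375 to 0.426, and the numbers were not taken as pairs. Members and gene lists were chosen with earlier results of these data known. Named pathway genes are those past the threshold with the largest changes, at most 5 in each direction. The result of 1 pathway gene is not reported here.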

Additional observations from a re-analysis of the deposited data

How the results depend on the processing

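Of 553 fits of members under alternatives, in the class and comparison pairs examined most closely, 502 kept direction and side of the threshold, 17 passed it newly, 14 lost it and 20 changed sign. Over all classes fitted, 20 fits passed newly. For bleomycin against PBS the 3 calls became 5 with DESeq2, 5 without a filter on low counts (which added endothelial *Pdgfa*, −2.93, adjusted p = 0.00237), 5 with the replicate block and 1 with shared barcodes left out, and 0 to 3 with 1 library left out. They became 1 under each of the 3 stromal settings chosen after seeing the data (no Schwann marker, at least 2 core genes, both). For AA against vehicle 0 calls became 0 to 2 with 1 library left out and stayed 0 with the replicate block. For *SARATg* against *SARAWT* kidneys the block gave 0 calls in gated classes and passed *Pdgfra* over all cells (3.95, adjusted p = 0.0498), which rests on 152 UMIs of 1 library. The cause of these changes was not tested.

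Genes called in stromal cells numbered 505 (274 higher, 231 lower), against 1084 with DESeq2, 1206 without a filter (541 higher, 665 lower), 1310 with the block, 165 with a stricter gate, 91 in libraries 1 and 2, 30 without shared barcodes, 38, 142 and 58 under the added settings and 2 to 369 with 1 library left out. In the proximal tubule 0 became 67 with DESeq2 and 310 without vehicle 3.

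No value that changed sign was called in the main comparison, and macrophage *Pdgfc* in kidney passed without vehicle 3. *Pdgfc* over all skin cells turned to −0.0378 without shared barcodes, −0.18 in libraries 1 and 2 and ran from −0.46 to 0.75 with 1 library left out. In the difference of bleomycin effects in stromal cells, *Pdgfb* turned to 0.25 without Schwann-marker cells and *Pdgfd* to 0.17 with DESeq2, and leaving out 1 library gave −0.86 to 0.11 for *Pdgfc* and −0.69 to 1.06 for *Pdgfd*. Mural minus stromal *Pdgfc* was 0.0693 with a stricter gate, 0.17 under stricter cell filters (500 genes, 10% mitochondrial), 0.0318 with core genes and no Schwann marker and −0.45 to 0.28 with 1 library left out. In kidney, leaving out 1 library gave −0.0677 to 0.27 for proximal tubule *Pdgfc*, −0.32 to 0.95 for *Pdgfd*, −0.00630 to 2.65 for macrophage *Pdgfc* and −0.16 to 0.0393 for *Pdgfa* over all cells.

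Shares of positive cells rose with depth above 1000 UMIs, where each depth covers only the cells that reach it. At 2000 UMIs and unthinned, *Pdgfa* in mural cells was 61.8% and 74.1%, *Pdgfb* in endothelial cells 33.6% and 42.4%, *Pdgfra* in stromal cells 30.5% and 59.1% and *Pdgfrb* in mural cells 66.6% and 78.9%. At 500 UMIs they were 18.8%, 12%, 10.6% and 19.8%, of which the *Pdgfb* share hardly differed from its 13.1% at 1000 UMIs. No pair of neighbouring classes passed under any alternative run. With so few libraries a single pair could not pass after adjustment, so this says nothing about stability. Mural and stromal kidney cells were too few for a fit, so receptor changes in those kidney cells could not be tested.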
